A study of Homo sapiens with 6 samples.

Results

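Iron handling and ferroptosis were followed through 10 genes of U2OS cells, chosen by symbol for their roles: ferritin storage (FTH1, FTL and NCOA4), iron uptake (TFRC and SLC11A2), iron export (SLC40A1), the iron regulatory proteins (IREB2 and ACO1), heme breakdown (HMOX1) and ferroptosis (ACSL4). All 10 were found among the 19977 gene symbols of the deposited table. U2OS is a human osteosarcoma line. The cells received a non-targeting control siRNA (siCtrl, 3 libraries) or an siRNA against NUDT5 (siNUDT5, 3 libraries), had no other treatment in either group, and gave RNA 48 hours later. NUDT5 is a hydrolase that cleaves ADP-ribose. Values are TPM, which correct read numbers for transcript length and sum to the same total in each library. The comparison asks how the level of each gene differs once NUDT5 is lowered.

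Cells take up iron as transferrin through the transferrin receptor TFRC, move it out of endosomes through SLC11A2 (also called DMT1), store it in ferritin shells built of FTH1 and FTL, and export it through ferroportin, the product of SLC40A1. When iron is scarce, the iron regulatory proteins ACO1 and IREB2 bind hairpins called iron-responsive elements: binding in the 5' UTR blocks translation of ferritin and ferroportin, and binding in the 3' UTR protects TFRC mRNA. NCOA4 carries ferritin to lysosomes, and the heme oxygenase HMOX1 frees iron from heme. Ferroptosis is a death by iron-dependent peroxidation of membrane lipids, and ACSL4 loads the polyunsaturated fatty acids that are oxidised.

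The element itself is shown because a strict search of the letters found it in 4 of the 10 mRNAs. A search of the UTRs of GENCODE 29 coding transcripts for a C, then 5 bases, the loop CAGTGN and 5 bases that pair with the first 5 (G-T pairs allowed) found it in FTH1, FTL and SLC40A1 (5' UTR, 1 site each) and in TFRC (3' UTR, 4 sites). Among all genes searched, 0.191% of 18827 held such a site in a 5' UTR and 0.691% of 19107 in a 3' UTR. UTR lengths differ between genes, so these shares are not for windows of 1 length, and a match is a description of letters. The sites were read from transcripts on the sense strand, and capitals mark the loop. Positions are in GRCh38, and the authors' build is hg19. The FTL site lies at chr19:48965335-48965364 on the plus strand, and the SLC40A1 site at chr2:189580660-189580689 on the minus strand. The TFRC sites, in transcript order, lie at chr3:196050978-196051007, chr3:196050574-196050603, chr3:196050509-196050538 and chr3:196050462-196050491 on the minus strand.
FTL: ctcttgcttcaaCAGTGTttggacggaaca
SLC40A1: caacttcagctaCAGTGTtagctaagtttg
TFRC, site 1: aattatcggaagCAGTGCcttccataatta
TFRC, site 2: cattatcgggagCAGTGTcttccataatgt
TFRC, site 3: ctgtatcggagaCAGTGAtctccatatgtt
TFRC, site 4: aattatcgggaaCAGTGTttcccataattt
The C, 5 bases and the loop without 5 pairs in the stem were found in the 3' UTR of FTH1, SLC11A2, IREB2 and ACO1 and in the 5' UTR of NCOA4. The looser form was found in the 3' UTR of 37.7% of genes and in the 5' UTR of 16.6%. The strict form asks for 5 pairs next to the loop, so an element with an imperfect stem would be missed. Not finding it, as in SLC11A2, therefore does not show that an mRNA lacks the element.

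NUDT5 had 46.2, 49.0 and 52.0 TPM across siCtrl 1 to 3, against 3.04, 2.74 and 2.67 TPM across siNUDT5 1 to 3. In the limma fit its log2 change was -3.71, at adjusted p = 1.32e-06. By exact permutation of the TPM, two-sided, p was 0.1, and 3 libraries a group can reach no lower. Low values gave a relative depth of 64.1% in siCtrl 2 and 89.4% to 118% in the others, with siCtrl 1 as 100%. siCtrl 2 stood apart. It differed from the other control libraries by a median of 0.227 to 0.296 on the log2 scale, against 0.0967 to 0.134 for the other 4 pairs within a group. The changes of the 10 genes and the counts of the lists are therefore given with and without siCtrl 2. Leaving out the control library most unlike its mates lowers the typical spread by that choice alone, and fewer controls remain. Over all genes 3802 passed without it, against 1970 with it. Smaller p-values in that fit are therefore no stronger evidence of a change. Mesenchymal markers were present (VIM at 3028 TPM or more in each library, SPARC at 701 or more), with COL1A2 at no more than 0.393 TPM. The 5 blood markers summed to at most 0.328 TPM. KRT8 and KRT18, listed as epithelial markers, were also expressed, at 229 TPM or more and 442 or more. The 8 mesenchymal markers summed to 4482 to 4746 TPM in siCtrl and 5166 to 5296 TPM in siNUDT5, and the 5 epithelial markers to 772 to 923 and 679 to 758 TPM. Of these 13, ALPL rose (log2 change 0.49, adjusted p = 0.0472) and EPCAM fell (-0.74, 0.0271). The part of these shifts in the results below was not tested. Separate cultures are not mentioned in the labels, and the spread behind each p-value is that of these libraries, which may be technical.

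Across the 10 genes, only SLC11A2 passed the test in the fit of all 6 libraries, and it rose. The test was limma on log2(TPM + 1), two-sided, over the 12236 genes whose mean reached 1 TPM, with Benjamini-Hochberg adjustment and a threshold of 0.05, and all 10 genes entered it. Of all genes tested 16.1% passed, 10.9% higher and 5.20% lower, so 1 of 10 is not above the background share. The groups were free of overlap for 5 of the 10, which were higher for SLC11A2, ACO1, HMOX1 and ACSL4 and lower for TFRC, while 37.3% of all tested genes did not overlap. Without siCtrl 2, 7 of the 10 passed, where 31.1% of all tested genes did: SLC11A2, IREB2, HMOX1 and ACSL4 as higher and FTH1, FTL and TFRC as lower. By direction, 21.8% of all tested genes were called higher and 9.29% lower in that fit. In the fit of all 6 libraries the median log2 change of the 10 was 0.07, beside 0.05 over all genes tested. Over all genes, that fit called 1334 higher and 636 lower, median-ratio scaling 1041 and 895, and quantile normalization 1018 and 965.

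**Figure D1:**
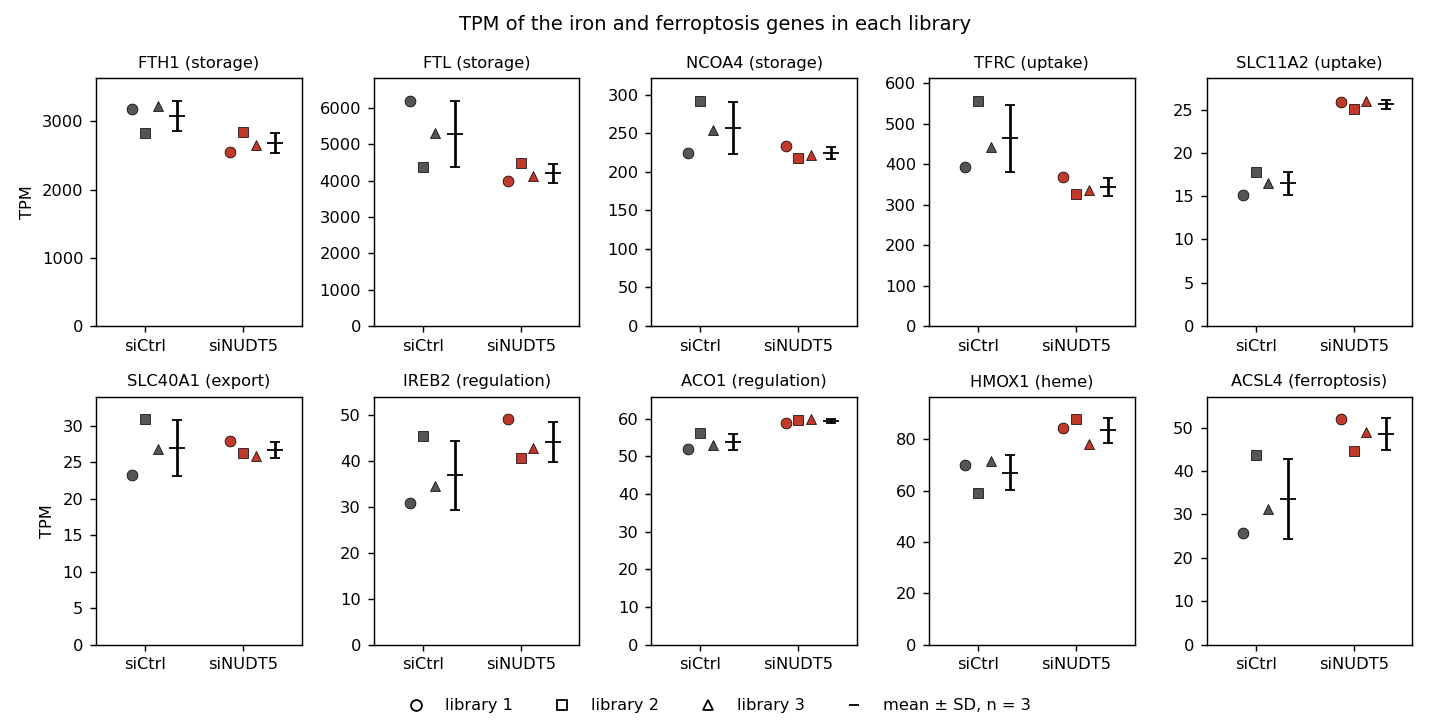
TPM of each gene (vertical axis, from 0, own scale per panel) in the 3 siCtrl libraries (grey) and the 3 siNUDT5 libraries (red); marker shape gives the library number, and bars give mean ± SD, n = 3. SLC11A2 lies between 15.2 and 17.8 TPM in siCtrl and between 25.0 and 26.0 TPM in siNUDT5, and the spread is wider in siCtrl than in siNUDT5 in all 10 panels.

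Ferritin was the most abundant of these transcripts. FTL, the light chain that helps form the iron core, had 6185, 4375 and 5319 TPM across siCtrl 1 to 3, against 3982, 4492 and 4134 TPM across siNUDT5 1 to 3. The groups overlapped only because siCtrl 2 lay below siNUDT5 2. The mean was 5293 ± 905 TPM against 4203 ± 262 TPM (SD, n = 3 each), and the log2 change was -0.32 (95% interval -0.59 to -0.05) with adjusted p = 0.104 by limma. Without siCtrl 2 the change was -0.45 with adjusted p = 0.00102, and without siCtrl 1 it was -0.20 with 0.191. In a bulk library, a lower level in all cells and a change in some cells cannot be told apart.

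FTH1, the heavy chain with the ferroxidase activity, stood at 3189, 2824 and 3225 TPM in siCtrl 1 to 3. Across siNUDT5 1 to 3 it had 2549, 2841 and 2653 TPM, so that siCtrl 2 again fell within the siNUDT5 range. The log2 change was -0.20 (95% interval -0.37 to -0.03) with adjusted p = 0.114 by limma. It was -0.26 with adjusted p = 0.0102 without siCtrl 2, and -0.17 with 0.202 without siCtrl 1. Both chains together made up 0.937%, 0.720% and 0.854% of all TPM in siCtrl 1 to 3 and 0.653%, 0.733% and 0.679% in siNUDT5 1 to 3.

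The FTH1 to FTL ratio averaged 0.589 ± 0.0666 over siCtrl against 0.638 ± 0.00497 over siNUDT5 (SD, n = 3 each), a difference of 0.12 on the log2 scale with p = 0.4 in an exact two-sided permutation test whose smallest p is 0.1. siCtrl 2 had the highest ratio of all 6 libraries, 0.645, while siCtrl 1 and 3, at 0.516 and 0.606, lay below all 3 siNUDT5 libraries. Without siCtrl 2 the difference was 0.19, and without siCtrl 1 it was 0.03. FTH1 and FTL have 25 and 16 pseudogenes named for them in GENCODE 29, none of them in the deposited table, and the sources used here do not say how reads shared with such copies were counted. FTH1 also overlaps BEST1 on the opposite strand, and whether strand was used in counting is not given either.

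NCOA4, the receptor that delivers ferritin to autophagy, stood at 224, 292 and 254 TPM in siCtrl and 233, 218 and 222 TPM in siNUDT5, libraries 1 to 3 in order. siCtrl 1 lay inside the siNUDT5 range. Its log2 change of -0.19 (95% interval -0.42 to 0.05) had adjusted p = 0.251 by limma, and without siCtrl 2 it was -0.09 with adjusted p = 0.377.

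The iron uptake genes had opposite signs. SLC11A2, which carries ferrous iron across endosomal and plasma membranes, had 15.2, 17.8 and 16.5 TPM across siCtrl 1 to 3, against 25.9, 25.0 and 26.0 TPM across siNUDT5 1 to 3. Every siNUDT5 library exceeded every siCtrl library. Its mean was 16.5 ± 1.32 TPM in siCtrl and 25.6 ± 0.521 TPM in siNUDT5 (SD, n = 3 each), higher by 55.4%. The log2 change was 0.61 (standard error 0.0945, 95% interval 0.39 to 0.83) with adjusted p = 0.00491 by limma. It passed without any 1 library, with changes of 0.55 to 0.66 and adjusted p of 0.000129 to 0.0369.

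TFRC, the receptor for transferrin, had 394, 557 and 442 TPM across siCtrl 1 to 3, against 368, 326 and 337 TPM across siNUDT5 1 to 3. The groups did not overlap, although siCtrl 1 and siNUDT5 1 lay close. The mean of 344 ± 21.8 TPM in siNUDT5 was 74.1% of the 464 ± 83.8 TPM in siCtrl (SD, n = 3 each). The log2 change was -0.42 (95% interval -0.70 to -0.13) with adjusted p = 0.0543 by limma, just short of the threshold. It passed as lower with median-ratio scaling (-0.47, adjusted p = 0.0268), quantile normalization (-0.44, 0.0394), without siCtrl 1 (-0.53, 0.0167) and without siCtrl 2 (-0.28, 0.0140). In the first 3 of these, 2 of the 10 genes passed, SLC11A2 and TFRC, where 15.8%, 16.2% and 16.9% of all tested genes did. TFRC did not pass in the other 10 of 14 alternative fits. Its adjusted p by limma was 0.122 without siCtrl 3 and 0.118 with the replicate number as a term. Leaving out siNUDT5 1, 2 or 3 gave 0.104, 0.171 and 0.171.

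The exporter SLC40A1 showed no difference of a size these libraries could resolve. It stood at 23.2, 30.9 and 26.8 TPM in siCtrl and 27.9, 26.3 and 25.9 TPM in siNUDT5, and the siNUDT5 values lay within the range of siCtrl. The log2 change was -0.0050 (95% interval -0.27 to 0.26) with adjusted p = 0.983 by limma, and its sign turned positive without siCtrl 2 (0.09), siNUDT5 2 (0.0043) or siNUDT5 3 (0.017).

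Neither iron regulatory protein gene passed the test. IREB2, whose protein is removed by FBXL5 when iron is plentiful, had 30.7, 45.2 and 34.4 TPM across siCtrl 1 to 3, against 48.9, 40.6 and 42.7 TPM across siNUDT5 1 to 3. siCtrl 2 was the control library within the siNUDT5 range. The log2 change was 0.27 (95% interval -0.07 to 0.60) with adjusted p = 0.251 by limma. It was 0.42 with adjusted p = 0.00497 without siCtrl 2, and 0.15 with 0.480 without siCtrl 1.

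ACO1, a cytosolic aconitase that binds iron-responsive elements when it lacks its iron-sulfur cluster, stood at 52.0, 56.2 and 53.1 TPM in siCtrl and 58.8, 59.5 and 59.8 TPM in siNUDT5. The groups did not overlap, and the difference was small. The log2 change was 0.14 (95% interval -0.04 to 0.32) with adjusted p = 0.254 by limma, and 0.17 with adjusted p = 0.0850 without siCtrl 2. The IREB2 to ACO1 ratio averaged 0.681 ± 0.111 over siCtrl against 0.742 ± 0.0794 over siNUDT5 (SD, n = 3 each), with p = 0.4 in the exact two-sided permutation test. The log2 difference was 0.13 with all libraries, 0.26 without siCtrl 2, where the groups did not overlap, 0.03 without siCtrl 1 and 0.05 without siNUDT5 1.

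HMOX1, the inducible heme oxygenase, had 70.1, 59.1 and 71.5 TPM across siCtrl 1 to 3, against 84.3, 87.7 and 78.3 TPM across siNUDT5 1 to 3. Every siNUDT5 value lay above every siCtrl value. The log2 change of 0.32 (95% interval 0.09 to 0.55) had adjusted p = 0.0622 by limma. It was 0.23 with adjusted p = 0.0326 without siCtrl 2, the lowest control library, and 0.35 with 0.0617 without siCtrl 1.

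ACSL4, the ferroptosis gene among the 10, had 25.6, 43.8 and 31.3 TPM across siCtrl 1 to 3, against 51.9, 44.6 and 49.1 TPM across siNUDT5 1 to 3. The groups did not overlap, with siCtrl 2 just below siNUDT5 2. The mean was 33.6 ± 9.28 TPM against 48.5 ± 3.70 TPM (SD, n = 3 each), and the log2 change was 0.55 (95% interval 0.15 to 0.95) with adjusted p = 0.0674 by limma. Without siCtrl 2 the change was 0.75 with adjusted p = 0.000143, and without siCtrl 1 it was 0.38 with 0.111. ACSL4 overlaps KCNE5 on the same strand in GENCODE 29.

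**Figure D2:**
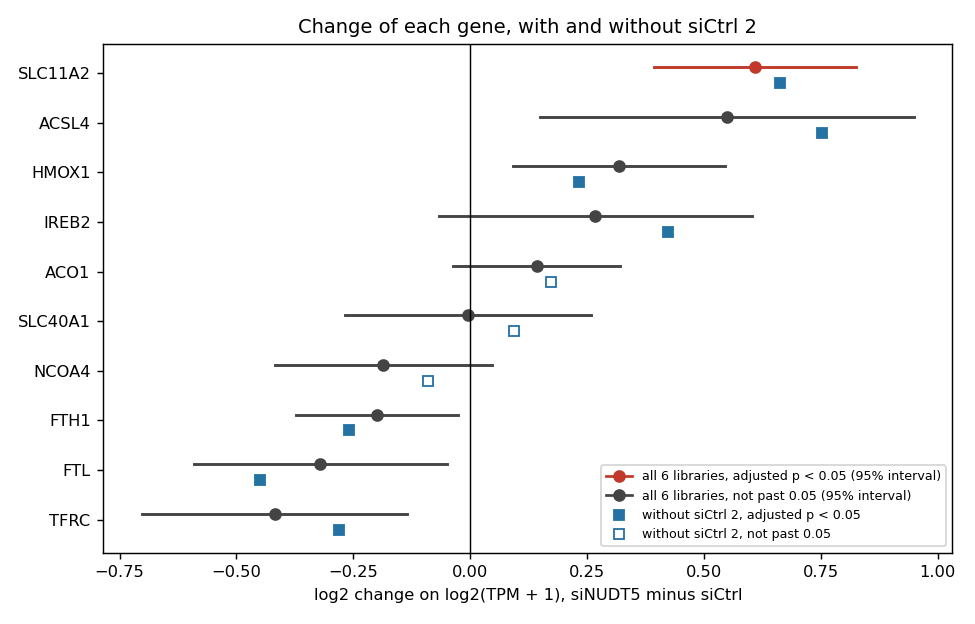
Log2 change of each gene on the log2(TPM + 1) scale, siNUDT5 minus siCtrl (horizontal axis), from all 6 libraries (circles with 95% intervals, red where adjusted p is under 0.05) and without siCtrl 2 (squares, filled where adjusted p is under 0.05). SLC11A2, at 0.61, is the red circle, and 7 squares are filled.

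By level per transcript length in siCtrl, the order was FTL (5293 TPM), FTH1 (3079), TFRC (464), NCOA4 (257), HMOX1 (66.9), ACO1 (53.7), IREB2 (36.8), ACSL4 (33.6), SLC40A1 (26.9) and SLC11A2 (16.5). Among neighbours in this order, the siCtrl values overlapped for IREB2 and ACSL4 and for ACSL4 and SLC40A1. In siNUDT5 the values of SLC40A1 and SLC11A2 overlapped as well, and those of ACSL4 and SLC40A1 did not.

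Within the control group, siCtrl 2 was the highest library for 7 of the 10 genes and the lowest for FTH1, FTL and HMOX1. These 3 have the shortest transcripts of the 10 in GENCODE 29, at 1229, 878 and 1822 bases for the longest coding form, against 3442 bases or more for the other 7. On the log2 scale siCtrl 2 lay 0.39 below the mean of siCtrl 1 and 3 for FTL and 0.61 above it for ACSL4, which placed them at the 6.99th and 95.1st percentiles of all genes with a length. Over 11570 genes of the same libraries, Spearman's rho between this deviation and transcript length was 0.321, given as a description. The same measure for siNUDT5 1 against siNUDT5 2 and 3 was 0.328, and for siNUDT5 minus siCtrl it was 0.0292. The part of transcript length in the results for the 10 genes was not tested.

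**Figure D3:**
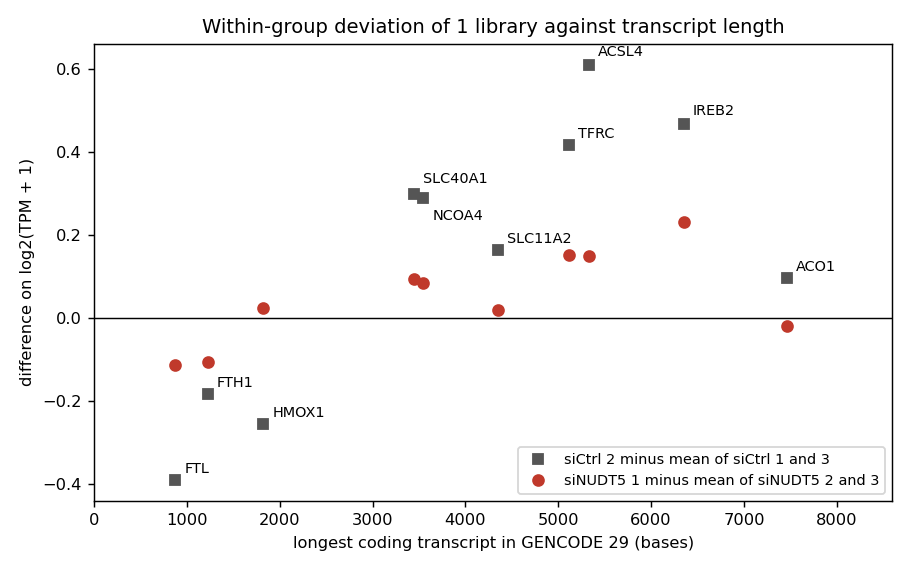
Deviation of siCtrl 2 from the mean of siCtrl 1 and 3 (grey squares, labelled by gene) and of siNUDT5 1 from the mean of siNUDT5 2 and 3 (red circles), on the log2(TPM + 1) scale, against the length in bases of the longest coding transcript. The grey squares of FTL, FTH1 and HMOX1, at 878 to 1822 bases, lie below 0, and the other 7 lie above 0.

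Short words of the 3' UTR, which earlier results of these data had picked out by log2 change, were also searched. Differences in log2 change between genes with and without the words are therefore not independent of that choice. They are given as a description. AAGACTT or AGACTTA was held by 22.5% of 11457 searched genes, whose median log2 change was -0.0082 against 0.07 in the others. GATTAAC was held by 6.18%, with a median of 0.14 against 0.04. The longest 3' UTR of each gene was searched, and its length was not matched between the genes with and without a word. Of the 10 genes, TFRC held both AAGACTT and AGACTTA, SLC11A2 held AAGACTT, ACSL4 held GATTAAC, and the other 7 held none of the words. Of the genes holding AAGACTT or AGACTTA, 8.77% were called higher, SLC11A2 among them, and 9.62% lower. Over all tested genes these shares were 10.9% and 5.20%. Of the 10 pathway genes that rose and had a 3' UTR searched, 4 held AAGACTT or AGACTTA, as did 4 of the 9 that fell. The words' part in these results was not tested.

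The wider pathway was described with 12 lists of 135 genes, the 10 included, of which 118 were tested. In all, 10 genes rose and 9 fell, 19 of 118, near the background of 16.1%, and the median log2 change was 0.03 beside 0.05 over all genes tested. Without siCtrl 2, 30 rose and 20 fell, where 31.1% of all genes passed. Of the 19, the calls of 6 (SLC11A2, FLVCR2, ISCA2, CIAO1, PEBP1 and SLC7A11) held without any 1 library, and the other 13 lost theirs without at least 1.

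Among iron uptake and reduction genes 2 of 10 rose, 8 did not pass, and the median log2 change was -0.01. Without siCtrl 2, 2 rose and 2 fell with a median of 0.06, and with median-ratio scaling or quantile normalization 1 rose and 1 fell. Beside SLC11A2 the ferric reductase CYBRD1 rose from 21.9 ± 2.91 to 29.1 ± 2.06 TPM (SD, n = 3 each), with log2 change 0.40 and adjusted p = 0.0480 by limma. Its 3' UTR held AAGACTT. Its call held in 1 of the 6 fits that left out 1 library, the one without siCtrl 2, with adjusted p of up to 0.175 in the others. It was also lost with median-ratio scaling (adjusted p = 0.0548) and quantile normalization (0.0513).

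None of 7 storage, chaperone and ferritin turnover genes passed (median 0.0080), and none of 5 genes for the iron regulatory proteins and their control (median -0.02), of which 1 fell with quantile normalization. Without siCtrl 2, 1 of the 7 storage genes rose and 2 fell, and 1 of the 5 regulatory genes rose. In the export list SLC40A1 was tested, and the ferroxidase genes CP and HEPH, HEPHL1 and PROM2 were below a mean of 1 TPM. Of 5 further mRNAs described as carrying an iron-responsive element, 2 rose without siCtrl 2 and 1 rose with all libraries, the kinase gene CDC42BPA, from 14.1 ± 2.72 to 23.1 ± 2.68 TPM (SD, n = 3 each), with log2 change 0.68 and adjusted p = 0.0180 by limma. It held GATTAAC, and its call was lost without siCtrl 3 (0.0672), siNUDT5 1 (0.0803) or siNUDT5 3 (0.0780).

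In the list of heme degradation, transport and BACH1, 1 of 11 rose, 1 fell, 9 did not pass and the median log2 change was 0.10. FLVCR2, a membrane transporter linked to heme and choline, stood at 1.12, 1.53 and 1.36 TPM in siCtrl and 3.14, 2.98 and 2.60 TPM in siNUDT5, with log2 change 0.74 and adjusted p = 0.00621 by limma, and it held AAGACTT too. PGRMC1, a heme-binding membrane protein, fell from 265 ± 61.9 to 158 ± 14.2 TPM (-0.72, adjusted p = 0.0166), and its 3' UTR held AAGACTT. The call of PGRMC1 was lost without siNUDT5 2 (0.0639) or siNUDT5 3 (0.0813). Without siCtrl 2, 4 genes of the list rose and 2 fell.

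In heme synthesis 2 of 8 rose and 6 did not pass with all libraries, and the median log2 change was -0.07. Without siCtrl 2, 3 rose and 1 fell, and with median-ratio scaling or quantile normalization none passed. ALAS1, the rate-limiting first enzyme, rose from 62.5 ± 0.721 to 75.8 ± 3.13 TPM (± SD of 3 libraries), with log2 change 0.27 and adjusted p = 0.0444 by limma. ALAS1 passed in 1 of the 6 fits that left out 1 library, the one without siCtrl 2. Its call was lost with median-ratio scaling (adjusted p = 0.0981) and quantile normalization (0.0985).

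ISCA2 acts late in mitochondrial iron-sulfur cluster assembly, and had 13.3, 13.1 and 12.5 TPM across siCtrl 1 to 3, against 30.5, 30.6 and 29.6 TPM across siNUDT5 1 to 3. The groups were far apart, by 1.16 on the log2 scale (standard error 0.0861, adjusted p = 0.000298 by limma). Its 3' UTR held AAGACTT. In the mitochondrial import and assembly list 2 of 20 rose and none fell, with a median of 0.04, while 1 rose and 1 fell with median-ratio scaling and 2 rose and 1 fell with quantile normalization. Beside ISCA2 the chaperone gene HSPA9 rose, with log2 change 0.25 and adjusted p = 0.0451, which passed in 1 of the 6 fits that left out 1 library and lost its call with median-ratio scaling (0.0814). Without siCtrl 2, 4 of the 20 rose and 2 fell.

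In cytosolic iron-sulfur assembly 1 of 10 rose, 1 fell and the median was 0.11. Without siCtrl 2, 4 rose and 2 fell with a median of 0.03, and with quantile normalization none rose and 1 fell. CIAO1, part of the complex that hands clusters to target proteins, stood at 139, 128 and 152 TPM in siCtrl and fell to 96.2, 95.9 and 87.7 TPM in siNUDT5. Its log2 change was -0.57 with adjusted p = 0.00512 by limma, and its 3' UTR held AAGACTT. The scaffold gene NUBP1 rose from 77.2 ± 6.20 to 101 ± 3.69 TPM (± SD of 3 libraries, log2 change 0.38, adjusted p = 0.0222), and passed in 2 of the 6 fits that left out 1 library. NUBP1 did not pass with quantile normalization (0.0613).

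On the lipid side of ferroptosis 1 of 17 rose, 2 fell and the median was 0.01. PEBP1, which binds lipoxygenases, rose from 190 ± 12.2 to 262 ± 10.8 TPM (± SD of 3 libraries, log2 change 0.46, adjusted p = 0.00697 by limma). The lipoxygenase genes ALOX5 (11.2 ± 2.07 to 7.14 ± 0.826 TPM, -0.57, adjusted p = 0.0344) and ALOXE3 (4.66 ± 0.161 to 3.30 ± 0.365 TPM, -0.40, adjusted p = 0.0433) fell. Each of these 2 passed in 1 of the 6 fits that left out 1 library, the one without siCtrl 2. ALOX15 and ALOX15B were listed at 0 in all 6 libraries. Without siCtrl 2, 4 of the 17 rose and 2 fell.

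Of 20 ferroptosis defence genes 5 fell, none rose and 15 did not pass, where 5.20% of all tested genes fell and 10.9% rose, and the median was -0.05. With median-ratio scaling or quantile normalization 6 fell and none rose. With no filter 3 fell. Only 1 fell with the replicate block and without siCtrl 3, siNUDT5 2 or siNUDT5 3, and 2 fell without siNUDT5 1. In the replicate block fit and these leave-out fits, 212 to 305 of the 12236 genes tested fell. SLC7A11, the cystine importer, fell from 66.6 ± 20.2 to 29.2 ± 3.73 TPM (± SD of 3 libraries, log2 change -1.13, adjusted p = 0.00715 by limma). Further falls were those of GCLM, the modifier subunit of glutathione synthesis (-0.70, adjusted p = 0.0321), GCH1, which starts tetrahydrobiopterin synthesis (-0.62, 0.0174), and MGST1, a microsomal glutathione transferase (-0.49, 0.0440). SLC3A2, the partner chain of SLC7A11, also fell (-0.43, 0.0293) and was chosen after its value was seen. SLC7A11 passed without any 1 library, and GCLM, GCH1, MGST1 and SLC3A2 passed in 2, 3, 2 and 1 of the 6 such fits. The 3' UTRs of GCLM and GCH1 held AAGACTT or AGACTTA. GCLC, the catalytic partner of GCLM, did not pass, at a log2 change of 0.39, and was chosen after its value was seen. GPX4, the peroxidase that reduces lipid peroxides, did not pass, at a log2 change of 0.15 with adjusted p = 0.385; it too was picked with its value known. Without siCtrl 2, 7 of the 20 fell and 2 rose, where 9.29% of all tested genes fell and 21.8% rose.

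**Figure D4:**
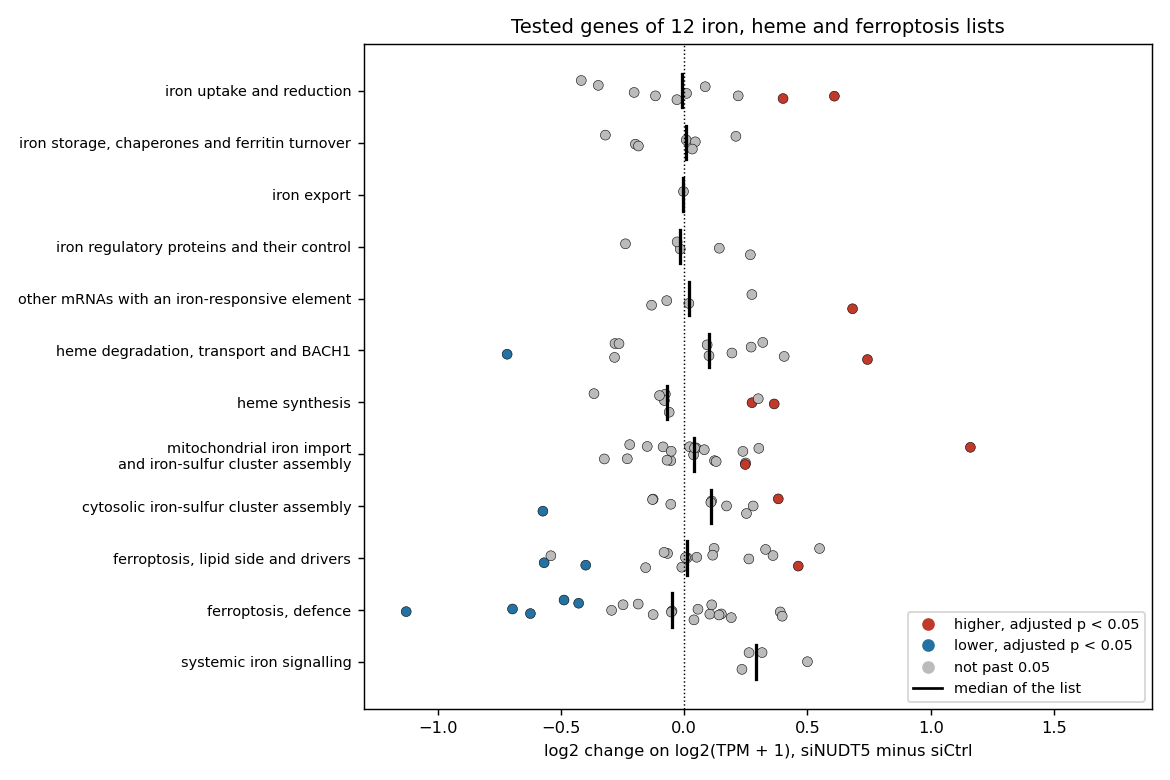
Log2 change on the log2(TPM + 1) scale, siNUDT5 minus siCtrl (horizontal axis), of each tested gene (points) in 12 lists (rows), red where higher and blue where lower at adjusted p under 0.05, with the list median as a bar. The red point farthest right is ISCA2 at 1.16, and the blue point farthest left is SLC7A11 at -1.13.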

How the data were processed

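RNA was taken 48 hours after transfection, and libraries were made with a strand-specific KAPA mRNA kit, per the labels' protocols. The table deposited by the authors gives TPM per gene symbol in 6 libraries. The build hg19 and the tools DESeq2 1.22.1 and STAR 2.7.3a stand in the submitters' processing notes, without their roles. The sources used here do not give the annotation, the strand setting or the way TPM were computed.

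Groups came from the titles. limma 3.58.1 in R 4.3.3 (lmFit, eBayes with a trend) was fitted to log2(TPM + 1) over the genes whose mean over 6 libraries reached 1 TPM. No count model was run on TPM. The log2(TPM + 1) scale understates the change of low genes. Exact permutation tests used scipy 1.17.1. Relative depth came from the whole-read steps of genes under 0.3 TPM in siCtrl 1. The siNUDT5 to siCtrl fit was tested on simulated data of 12236 genes. It recovered 38% of 100 genes given a log2 change of 0.5 and 82% of 100 given 1, with 2 false calls and 0 wrong signs. The simulated noise was independent between genes and equal in spread across the libraries, with no library standing apart as siCtrl 2 did. These rates therefore need not hold for the real libraries.

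The 10 genes, the 12 lists, the tests and the words searched were chosen with earlier results of these data known. Named list genes are up to 4 past the threshold per list, by size of change. For 1 gene that this rule would name, the values are not reported here. In all 14 alternatives were run: a pseudocount of 0.1 or 5, a filter at a mean of 5 TPM or none, 2 scalings, no trend, the replicate block and leaving out each library. UTRs came from GENCODE 29, matched by symbol. Words were searched in 11457 of the 12236 tested genes, those with a 3' UTR of 50 bases or longer.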

Additional observations from a re-analysis of the deposited data

How the results depend on the processing

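Each of 11 log2 changes (NUDT5 and the 10 genes) had 14 alternatives, 154 values in all. Of these, 142 kept their direction and their side of the threshold, 9 newly passed it and none was lost. A loss was open only to NUDT5 and SLC11A2, the genes past the threshold with all libraries. The other 3 values turned sign, all of SLC40A1 (0.094 without siCtrl 2, 0.0043 without siNUDT5 2 and 0.017 without siNUDT5 3). The number of the 10 genes past the threshold was 1, and 2 with median-ratio scaling, 2 with quantile normalization and 1 to 7 when 1 library was left out. Over all genes 1970 passed, and 766 to 3802 when 1 library was left out. Of the list genes 19 passed, and 6 to 50 did so when 1 library was left out. TFRC changed by -0.47 with median-ratio scaling and by -0.44 with quantile normalization, both past the threshold, and it did not pass in 10 of the 14 alternatives. When 1 library was left out, the log2 changes ranged from -0.26 to -0.16 for FTH1, -0.45 to -0.20 for FTL, -0.53 to -0.28 for TFRC, -0.10 to 0.09 for SLC40A1, 0.15 to 0.42 for IREB2, 0.23 to 0.37 for HMOX1 and 0.38 to 0.75 for ACSL4. The cause of these shifts was not tested. The ratio of FTH1 to FTL and that of IREB2 to ACO1 kept their sign without any 1 library, an alternative added after seeing the data, with differences of 0.03 to 0.19 and 0.03 to 0.26.

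Same-numbered libraries had correlations of -0.426, -0.538 and -0.0449 between their deviations from the group means, and none correlated best with its own number. In siCtrl 2 and siNUDT5 1 the deviations also went with transcript length (Spearman's rho 0.321 and 0.328). The correlations therefore cannot decide whether same-numbered libraries were paired. With the replicate block 739 genes passed over all, 6 of the list genes did, and SLC11A2 was still 1 of the 10 past the threshold, at adjusted p = 0.0416 by limma.

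TPM keep no total depth, so no counting interval is given. With 3 libraries a group, an interval such as that of IREB2, -0.07 to 0.60, leaves changes of moderate size unresolved.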

Other observations

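Of 9 genes for systemic iron signalling 4 were tested and none passed, with a median log2 change of 0.29 beside 0.05 over all genes tested. They were BMP6 (0.50, adjusted p = 0.0842 by limma), BMP2 (0.32, 0.211), NEO1 (0.23, 0.138) and the erythroferrone gene FAM132B (0.26, 0.183), chosen after their values were seen. Without siCtrl 2, 3 of the 4 rose, where 21.8% of all tested genes did, and none rose in any other alternative. The hepcidin gene HAMP was listed at 0 in 5 of the 6 libraries, and HFE2 and TMPRSS6 in all 6.

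The 3 genes whose values followed SLC11A2 most closely within the groups over the 6 libraries were MRPS31, RFX3 and ZNF273, with r of 0.999, 0.998 and 0.998. With 6 libraries and 12236 genes searched, such values are a description. Their own log2 changes were -0.43, -0.37 and -0.03, so none shared the rise of SLC11A2.

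Of 3 macrophage-linked genes, CD68, a lysosomal glycoprotein gene, rose (log2 change 1.01, adjusted p = 0.00348 by limma), the scavenger receptor gene MARCO fell (-0.64, 0.0118), and CD163, the hemoglobin scavenger receptor, stood at no more than 0.180 TPM. They were on a list of markers not expected in this line, yet CD68 stood at 5.30 to 15.4 TPM and MARCO at 4.89 to 10.1 TPM. The summed level of the 3 genes was 13.7 to 18.2 TPM in siCtrl and 20.3 to 21.0 TPM in siNUDT5.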
